A study of Mus musculus with 15 samples.

Results

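The motor neurons that supply the peroneus longus (PL), a muscle of the lateral leg that turns the sole outward, were compared with those that supply the gastrocnemius (GS), a calf muscle that points the foot downward. The pair was taken by its labels: the 3 PL libraries and the 3 GS libraries were used out of 15 mouse libraries from 5 motor pools. All animals were wild-type mice, given a fluorescent cholera toxin tracer by muscle injection at postnatal day 4 and taken at day 6. Per the labels, each library is a biological replicate that pooled 30 to 40 laser-captured cells from 2 to 5 animals. The other 9 libraries, from pools named TA (tibialis anterior), EDL (extensor digitorum longus) and IF (intrinsic foot muscles), entered the fit and a separate comparison below. The labels do not say whether libraries of different pools shared animals, so p-values measure the spread between these pooled libraries.

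A motor pool is the group of motor neurons that supplies a given muscle. Pools of the limb lie in the lateral motor column, which has a lateral division with axons to dorsal limb muscles and a medial division with axons to ventral limb muscles. The LIM homeodomain factor Isl1 marks the medial division, and its relative Lhx1 marks the lateral division in the embryo. The peroneal muscles are reached through the common peroneal nerve, a dorsal route, and the gastrocnemius through the tibial nerve, a ventral route. Within a division, pools are told apart by combinations of transcription factors, guidance receptors and adhesion molecules. The labels do not state the division of either pool.

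Raw gene counts summed to 8488368, 4417114 and 6779691 in PL 1, 2 and 3, against 5488780, 6506965 and 6104333 in GS 1, 2 and 3. Genes with at least 1 read numbered 15188, 11019 and 10548 in PL 1, 2 and 3, against 16429, 13610 and 14798 in GS 1, 2 and 3. Of 14340 genes that passed the filter on low counts, 4.87%, 25.7% and 29.2% were at 0 in PL 1, 2 and 3, against 1.55%, 10.6% and 5.46% in GS 1, 2 and 3. PL 2 and PL 3 thus stood apart from the 4 other libraries of this pair. Rank correlations of levels over the tested genes were 0.657 to 0.742 between PL libraries, against 0.835 to 0.887 between GS libraries. PL 1 correlated with the GS libraries at 0.824 to 0.891, which is above its correlation with PL 2 or PL 3. Levels below are counts per 1e+06 counts of the library (CPM) after edgeR's TMM scaling, a factor per library that allows for a few genes taking a large share of the reads. A gene is called when its Benjamini-Hochberg adjusted p from edgeR's quasi-likelihood test is under 0.05, and apart when the 3 libraries of a pool all lie on the same side of the 3 of the other pool.

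The PL pool had more RNA of the adhesion molecules Alcam and Ncam2, the guidance receptor Plxna2, the secretory granule protein Scg2, the neurotensin precursor Nts and the factor Sox6. The GS pool had more RNA of Isl1, of the somatostatin precursor Sst and of the receptor gene Trhr. Of the 14340 genes tested, 17 were called (0.119%), 12 of them higher in PL (0.0837%) and 5 higher in GS (0.0349%), and all 17 were also apart. Over all tested genes 553 were apart with PL above (3.86%) and 1327 with PL below (9.25%). A gene without a pool difference would be apart, in either direction, with a probability of 0.1. Being apart is thus not by itself a sign of a pool difference. The median log2 fold change of all tested genes was -0.07. Without any adjustment, 2146 genes had p under 0.05, of which 1122 were higher in PL and 1024 higher in GS. An exact permutation test of 3 libraries against 3 cannot give a p below 0.1 for a single gene, so the calls rest on the spread that edgeR shares over genes and pools. In bulk libraries such as these, fewer cells of a type and less RNA per cell cannot be told apart.

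**Figure D1:**
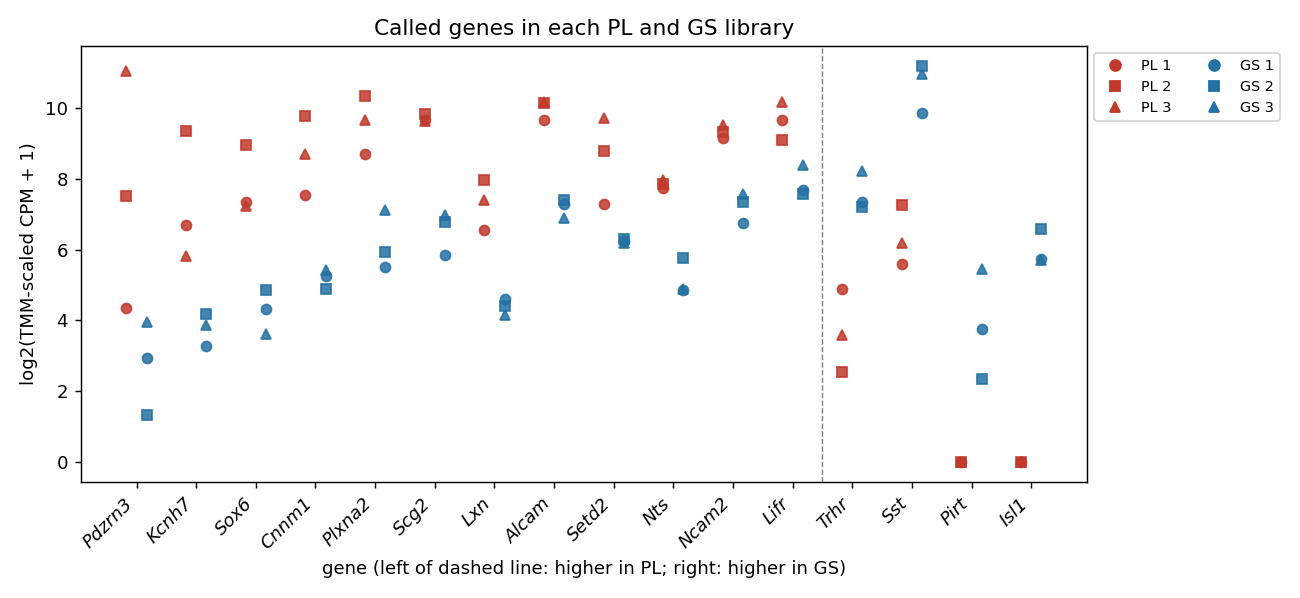
Level of each of the 16 called genes with a gene name in PL (red, left of each pair) and GS (blue, right), as log2(TMM-scaled CPM + 1), with a symbol for each library. Genes left of the dashed line were higher in PL, and in every column the PL and GS symbols do not overlap.

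Isl1 separated the pools without any shared value. It had no read in PL 1, 2 or 3, against 52.6, 94.1 and 51.4 CPM in GS 1, 2 and 3, which came from 360, 553 and 315 reads. With PL set to a floor of 3 reads over the pool, Isl1 was at least 367-fold higher in GS (edgeR Benjamini-Hochberg adjusted p = 0.00758). Pirt, a regulator of TRP channels known from sensory neurons, also had no PL read, against 12.4, 4.09 and 43.3 CPM in GS 1, 2 and 3. It was at least 112-fold higher in GS (edgeR Benjamini-Hochberg adjusted p = 0.0395), and its GS values differed among themselves far more than those of Isl1. Both bounds allow for counting error alone, because PCR copies of a molecule are counted again.

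Lhx1 was read in the 3 PL libraries and in no GS library, but unevenly. It was at 16.4, 361 and 0.221 CPM in PL 1, 2 and 3, the last from 1 read, against 0 in GS 1, 2 and 3. The gene was apart and was not called (edgeR Benjamini-Hochberg adjusted p = 0.127). Isl1 lies on chromosome 13 at 117088478 to 117099897 on the minus strand of mm9, and Lhx1 on chromosome 11 at 84331479 to 84338924 on the minus strand. Of 17 tested column and pool identity factors, Isl1 was called, 3 were apart with PL above (Lhx1, Etv4 and Fign) and 2 apart with PL below. The shares of all tested genes were 3.86% above and 9.25% below. The median log2 fold change of the list was 0.05 (-0.41 with library totals as the only scaling). Etv4, an ETS factor of certain motor pools, was at 23.3, 27.5 and 21.2 CPM in PL 1, 2 and 3, against 8.92, 1.02 and 7.18 CPM in GS 1, 2 and 3 (edgeR Benjamini-Hochberg adjusted p = 0.473). Fign, a microtubule-severing protein singled out after its values were seen, was at 179, 127 and 464 CPM in PL 1, 2 and 3, against 5.56, 11.4 and 9.47 CPM in GS 1, 2 and 3. It was not called either (edgeR Benjamini-Hochberg adjusted p = 0.0942).

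Of the called precursor and granule genes, Sst was higher in GS, and Nts and Scg2 were higher in PL. Sst, which encodes the precursor of the inhibitory peptide somatostatin, was at 47.3, 154 and 71.3 CPM in PL 1, 2 and 3, against 936, 2342 and 2005 CPM in GS 1, 2 and 3. Its mean was 90.8 ± 55.9 CPM in PL and 1761 ± 734 CPM in GS (SD, n = 3 each). The highest PL library lay well under the lowest GS library, and the log2 fold change of PL over GS was -4.28 ± 0.48 (SE; edgeR Benjamini-Hochberg adjusted p = 0.000539).

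Nts, the precursor of the peptide neurotensin, went the opposite way, with 214, 232 and 251 CPM in PL 1, 2 and 3, against 28.1, 53.3 and 28.6 CPM in GS 1, 2 and 3. The PL values were close together, at 233 ± 18.2 CPM against 36.6 ± 14.4 CPM in GS (SD, n = 3 each), and the log2 fold change was 2.67 ± 0.43 (SE; edgeR Benjamini-Hochberg adjusted p = 0.00931). Scg2, secretogranin II, is a granin that is stored in dense-core vesicles and cut into smaller peptides. It was at 813, 903 and 788 CPM in PL 1, 2 and 3, against 57.0, 108 and 126 CPM in GS 1, 2 and 3. No PL library came near a GS library, and the log2 fold change was 3.10 ± 0.38 (SE; edgeR Benjamini-Hochberg adjusted p = 0.000812).

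The promoters of these 3 genes are shown because they encode the called precursor and granule proteins and differ in holding the exact letters of a known element. The sequences are from RefSeq on build GRCm38.p6, 250 bases before to 50 bases after the annotated start, 5′ to 3′ on the gene's strand. Capitals mark TGACGTCA, the palindromic cAMP response element, which reads the same on both strands. The windows are chr1:79439977-79440276 for Scg2, chr10:102490369-102490668 for Nts and chr16:23890795-23891094 for Sst, all on the minus strand.
Scg2: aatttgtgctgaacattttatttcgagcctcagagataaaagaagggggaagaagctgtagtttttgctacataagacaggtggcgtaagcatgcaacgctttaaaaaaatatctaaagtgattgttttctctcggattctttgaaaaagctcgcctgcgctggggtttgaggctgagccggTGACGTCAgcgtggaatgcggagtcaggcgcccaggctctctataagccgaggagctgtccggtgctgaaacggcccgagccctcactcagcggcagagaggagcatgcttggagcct
Nts: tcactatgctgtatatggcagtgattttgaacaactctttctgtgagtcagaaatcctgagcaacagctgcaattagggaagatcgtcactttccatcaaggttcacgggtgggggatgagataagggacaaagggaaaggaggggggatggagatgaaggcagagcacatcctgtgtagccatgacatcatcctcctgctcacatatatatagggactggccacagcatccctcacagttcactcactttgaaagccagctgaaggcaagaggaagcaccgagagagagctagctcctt
Sst: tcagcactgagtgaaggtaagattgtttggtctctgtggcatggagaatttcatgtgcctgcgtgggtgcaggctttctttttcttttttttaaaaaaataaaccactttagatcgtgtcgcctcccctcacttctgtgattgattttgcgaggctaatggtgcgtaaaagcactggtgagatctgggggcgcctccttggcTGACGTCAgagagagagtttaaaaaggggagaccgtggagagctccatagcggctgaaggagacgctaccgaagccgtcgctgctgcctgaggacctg

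The element begins 68 bases before the start of Scg2 and 48 bases before that of Sst, and these exact letters are not in the window of Nts. The Nts window holds TGACATCA, which differs by 1 base and was not counted as a match. Whether any of these sites acts was not tested. Scg2, higher in PL, and Sst, higher in GS, share the exact element. Of all 32851 promoters in the table, 588 hold it (1.79%). Of the 16 called genes with a gene name, 14 have at least 1 promoter there, and 2 of their 20 promoters hold it.

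Of 17 tested neuropeptide precursors, 1 was called in each direction. By libraries, 1 was apart with PL above and 3 with PL below, against 3.86% and 9.25% of all tested genes. The median log2 fold change of this list was 0.20, and it was -0.19 with library totals as the only scaling. Penk, the precursor of the opioid peptide enkephalin and 1 of the 3 below, is named here after its values were seen. It was at 3.68, 21.7 and 0.221 CPM in PL 1, 2 and 3, against 123, 75.4 and 235 CPM in GS 1, 2 and 3. It was not called (edgeR Benjamini-Hochberg adjusted p = 0.143). Of 11 tested granins and peptide processing enzymes, Scg2 was the 1 called and the 1 apart. The median log2 fold change of those 11 was 0.22, and -0.13 with library totals as the only scaling.

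Among 23 tested peptide and hormone receptors, Trhr, the receptor of thyrotropin-releasing hormone, was the 1 called. It was at 28.4, 4.79 and 11 CPM in PL 1, 2 and 3, against 163, 147 and 300 CPM in GS 1, 2 and 3. All PL libraries were low, and the log2 fold change was -3.76 ± 0.61 (SE; edgeR Benjamini-Hochberg adjusted p = 0.0113). Of the 23 receptors, 4 were apart with PL below and 1 with PL above, against 9.25% and 3.86% of all tested genes. Their median log2 fold change was -0.92. The 1 above was Glp1r, the receptor of glucagon-like peptide 1, with 123, 533 and 203 CPM in PL 1, 2 and 3, against 0.146, 0 and 8.32 CPM in GS 1, 2 and 3. Glp1r was named after its values were seen and was not called (edgeR Benjamini-Hochberg adjusted p = 0.148).

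Alcam and Ncam2, adhesion molecules of the immunoglobulin family, were both called higher in PL. Alcam, an adhesion molecule of growing axons, was at 815, 1120 and 1147 CPM in PL 1, 2 and 3, against 154, 168 and 118 CPM in GS 1, 2 and 3. Every PL library exceeded every GS library several-fold, and the log2 fold change was 2.81 ± 0.33 (SE; edgeR Benjamini-Hochberg adjusted p = 0.000679). Ncam2, a neural cell adhesion molecule known for its part in olfactory axon sorting, was at 570, 643 and 738 CPM in PL 1, 2 and 3, against 108, 163 and 190 CPM in GS 1, 2 and 3. Here too the pools did not overlap, and the log2 fold change was 2.08 ± 0.30 (SE; edgeR Benjamini-Hochberg adjusted p = 0.00436).

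Of the 20 tested members of this adhesion list, 2 were called, 5 were apart with PL above and none was apart with PL below. The shares over all tested genes were 3.86% above and 9.25% below. With library totals as the only scaling 4 members were apart above and none below. The other 3 apart were Mcam, Cntn4 and Cntn1. Mcam, also called CD146, was at 417, 686 and 696 CPM in PL 1, 2 and 3, against 224, 291 and 217 CPM in GS 1, 2 and 3. Cntn4, a contactin, was at 113, 234 and 112 CPM in PL 1, 2 and 3, against 35.7, 22.0 and 70.2 CPM in GS 1, 2 and 3. Cntn1, another contactin, lay closer, with 856, 1466 and 1024 CPM in PL 1, 2 and 3, against 661, 751 and 567 CPM in GS 1, 2 and 3. None of the 3 was called. The median log2 fold change of the 20 was 0.78.

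Plxna2 encodes a plexin, a receptor through which semaphorins steer axons. It was at 415, 1295 and 810 CPM in PL 1, 2 and 3, against 44.3, 59.8 and 139 CPM in GS 1, 2 and 3. The PL libraries differed about as much among themselves as the GS libraries did on a log scale, and the pools stayed well apart. The log2 fold change was 3.38 ± 0.45 (SE; edgeR Benjamini-Hochberg adjusted p = 0.00209). The gene lies on chromosome 1 at 196446023 to 196643064 on the plus strand of mm9.

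Of 29 tested semaphorins, plexins and neuropilins, Plxna2 was the 1 called, and the median log2 fold change was -0.31. By libraries, 3 were apart with PL above and 2 with PL below, against 3.86% and 9.25% of all tested genes. With library totals as the only scaling the balance turned, with 2 above and 5 below. Sema5a, a semaphorin anchored in the membrane and named after its values were seen, was at 428, 231 and 372 CPM in PL 1, 2 and 3, against 72.5, 119 and 63.2 CPM in GS 1, 2 and 3 (edgeR Benjamini-Hochberg adjusted p = 0.174). Among 15 tested netrins, slits and their receptors none was called, 2 were apart with PL above and 1 with PL below, against 3.86% and 9.25% of all tested genes. With library totals as the only scaling this turned to 1 above and 2 below. The 2 above were the netrin receptors Neo1 and Unc5d. Neo1 was at 199, 590 and 398 CPM in PL 1, 2 and 3, against 90.2, 125 and 113 CPM in GS 1, 2 and 3 (edgeR Benjamini-Hochberg adjusted p = 0.131). Unc5d was at 277, 202 and 88.7 CPM in PL 1, 2 and 3, against 62.9, 40.2 and 36.9 CPM in GS 1, 2 and 3 (edgeR Benjamini-Hochberg adjusted p = 0.211).

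Of 17 tested Eph receptors and ephrins none was called and 2 were apart, with PL above, where the share over all tested genes was 3.86%. With library totals as the only scaling the direction turned, with none above and 1 below. Epha4, which guides limb motor axons to dorsal muscles in the embryo, was at 364, 263 and 192 CPM in PL 1, 2 and 3, against 119, 180 and 178 CPM in GS 1, 2 and 3. The lowest PL library was only just above the highest GS library, and the log2 fold change was 0.78 ± 0.36 (SE; edgeR Benjamini-Hochberg adjusted p = 0.328). Ephb1, which guides limb motor axons to ventral muscles, was at 14.0, 3.19 and 7.72 CPM in PL 1, 2 and 3, against 11.7, 118 and 12.4 CPM in GS 1, 2 and 3, so the pools overlapped. Among 15 tested cadherins none was called, and the median log2 fold change was 0.41. Of these 15, 1 was apart, with PL below, where the share over all tested genes was 9.25%.

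Sox6, a transcription factor of the SoxD group that is also expressed in the oligodendrocyte lineage, was at 162, 492 and 151 CPM in PL 1, 2 and 3, against 19.0, 28.3 and 11.3 CPM in GS 1, 2 and 3. The log2 fold change was 3.78 ± 0.59 (SE; edgeR Benjamini-Hochberg adjusted p = 0.00758). The PL 2 library, highest in Sox6, also had the highest sum of oligodendrocyte markers, given below. Without PL 2 the log2 fold change of Sox6 was 3.0 and the call stood (edgeR Benjamini-Hochberg adjusted p = 0.0204). The part of oligodendrocytes in the Sox6 values was not tested.

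Lifr, the receptor subunit for leukemia inhibitory factor and, with its partners, for ciliary neurotrophic factor, was at 810, 543 and 1147 CPM in PL 1, 2 and 3, against 205, 190 and 337 CPM in GS 1, 2 and 3. The log2 fold change was 1.77 ± 0.33 (SE; edgeR Benjamini-Hochberg adjusted p = 0.0395). It was the 1 called of 20 tested neurotrophic factors and receptors, of which 3 were apart with PL above and 3 with PL below, against 3.86% and 9.25% of all tested genes. With library totals as the only scaling it was 1 above and 3 below, and the median log2 fold change of the list turned to -0.07, against 0.40 with TMM scaling.

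Kcnh7, a voltage-gated potassium channel of the ERG group, was at 102, 652 and 56.0 CPM in PL 1, 2 and 3, against 8.77, 17.2 and 13.5 CPM in GS 1, 2 and 3. PL 2 stood far above the other PL libraries, and the log2 fold change was 4.36 ± 0.82 (SE; edgeR Benjamini-Hochberg adjusted p = 0.0395). Of 58 tested potassium channels it was the 1 called. In that list 2 were apart with PL above and 5 with PL below, against 3.86% and 9.25% of all tested genes. Kcnh7 overlaps Gca on the opposite strand, and the library kit does not mark strand, so their reads cannot be told apart at shared positions. Gca was at 34.9, 0 and 5.96 CPM in PL 1, 2 and 3, against 8.77, 99.4 and 12.7 CPM in GS 1, 2 and 3, so it did not follow Kcnh7.

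Lxn, latexin, an inhibitor of carboxypeptidases, was at 93.6, 247 and 168 CPM in PL 1, 2 and 3, against 23.5, 20.1 and 16.8 CPM in GS 1, 2 and 3. The log2 fold change was 3.07 ± 0.48 (SE; edgeR Benjamini-Hochberg adjusted p = 0.00758). Lxn overlaps Gfm1, a mitochondrial elongation factor gene on the opposite strand. Gfm1 was at 62.3, 107 and 43.9 CPM in PL 1, 2 and 3, against 89.5, 147 and 108 CPM in GS 1, 2 and 3, and did not follow Lxn.

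The 3 remaining calls rested on uneven PL libraries. Cnnm1, a member of the cyclin M family, was at 185, 872 and 413 CPM in PL 1, 2 and 3, against 37.6, 28.6 and 41.8 CPM in GS 1, 2 and 3 (log2 fold change 3.76 ± 0.70, SE; edgeR Benjamini-Hochberg adjusted p = 0.0395). Setd2, a methyltransferase of histone H3 lysine 36, was at 156, 442 and 844 CPM in PL 1, 2 and 3, against 74.6, 78.1 and 72.0 CPM in GS 1, 2 and 3 (log2 fold change 2.68 ± 0.50, SE; edgeR Benjamini-Hochberg adjusted p = 0.0395). Pdzrn3, a ubiquitin ligase known at the neuromuscular junction, was at 19.5, 182 and 2099 CPM in PL 1, 2 and 3, against 6.72, 1.53 and 14.5 CPM in GS 1, 2 and 3. Its log2 fold change was 6.65 ± 1.27 (SE; edgeR Benjamini-Hochberg adjusted p = 0.0448). PL 1, the PL library with the most detected genes, was the lowest of the 3 in each of these genes, and for Pdzrn3 it was 1.34 times the highest GS library. Just outside the rule that libraries be apart lay Syt6, a synaptotagmin, with 43.2, 0 and 120 CPM in PL 1, 2 and 3, against 0 in each GS library.

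How far the calls depend on single libraries was examined by leaving out each of the 15 in turn. Alcam, Isl1, Ncam2, Plxna2, Scg2 and Sst stayed called every time, with edgeR Benjamini-Hochberg adjusted p of at most 0.0422. Sox6 and Nts lost their calls without GS 1 and without GS 3, and Trhr without PL 3 and without GS 3. Lxn lost its call without GS 1, GS 2 or GS 3 in turn. Their highest edgeR Benjamini-Hochberg adjusted p was 0.0906 for Sox6, 0.125 for Nts, 0.0747 for Trhr and 0.0906 for Lxn.

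The 6 other called genes depended on more libraries. Pirt stayed called without PL 1, GS 2, TA 2, TA 3, EDL 1 or EDL 3, and Setd2 without PL 1, PL 2, TA 3 or EDL 3. Lifr stayed called without PL 1, PL 2, TA 2 or TA 3, Cnnm1 without PL 1, TA 2 or TA 3, Kcnh7 without PL 1, PL 3 or TA 3, and Pdzrn3 without PL 1 or PL 2. Each of these 6 lost its call without any of the libraries not listed for it, where the highest edgeR Benjamini-Hochberg adjusted p was 0.114 for Pirt, 0.227 for Setd2, 0.249 for Lifr, 0.241 for Cnnm1 and 0.283 for Kcnh7 and for Pdzrn3.

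The number of calls moved with the library left out. It was 1646 without PL 1, 23 without PL 2 and 11 without PL 3, and 7 without GS 1, 11 without GS 2 and 6 without GS 3. Without a library of the other pools it was 10 to 19, and it was 10 without EDL 2, IF 1, IF 2 or IF 3 and 11 without TA 1 or EDL 1. Without PL 2 and PL 3 together, which leaves PL 1 assumed to vary like the other pools, 13 genes were called, 7 of them among the 17. These 7 were Sst, Alcam, Scg2, Ncam2, Isl1, Sox6 and Nts, and Plxna2 had a log2 fold change of 2.35 and an edgeR Benjamini-Hochberg adjusted p of 0.0549. In a fit of the 6 libraries of this pair alone none was called by edgeR, with 636 genes at an unadjusted p under 0.05, against 78 called by DESeq2 and 4 by limma voom.

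**Figure D2:**
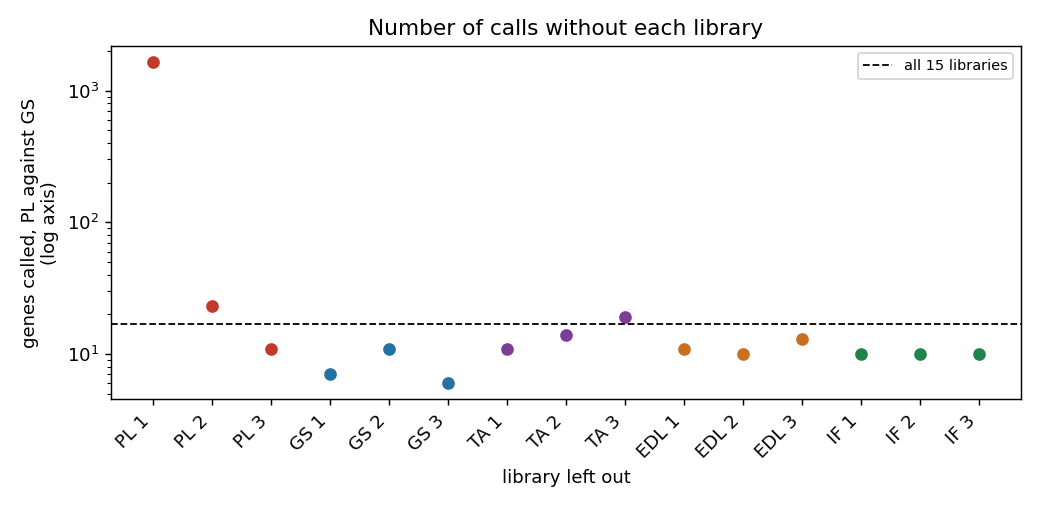
Number of genes called between PL and GS (log axis) when each of the 15 libraries was left out, coloured by pool. The dashed line marks the 17 calls of the full fit. Leaving out PL 1 gave 1646 calls, and leaving out any other library gave 6 to 23.

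Genes apart were more often lower in PL than higher, and PL 2 and PL 3 detected few genes. Without PL 2 and PL 3 the rule asks only that PL 1 lie outside the range of the GS libraries. Far more genes meet that, so counts under that setting cannot be set beside those of the full rule. Of the 1327 genes apart with PL below, 458 (34.5%) were at 0 in both PL 2 and PL 3, against 2459 (17.1%) of all tested genes, and 148 had no read in any PL library. A gene at 0 in PL 2 and PL 3 cannot be apart with PL above, so a larger share below is built into the rule. The part of low detection in the count was not tested. With genes restricted to a mean of at least 10 CPM, 753 were apart with PL below. Left-out libraries moved these counts above 1.5 times: those apart with PL above became 1406 without PL 1, 1325 without PL 2, 1283 without PL 3, 837 without GS 1, 842 without GS 2 and 835 without GS 3. Those with PL below became 3943 without PL 1, 2098 without PL 2, 2447 without GS 2 and 2141 without GS 3. With a PL or GS library left out the rule asks less of a gene, so a rise is built in. How much of each rise goes beyond that was not tested.

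Next below the threshold on the GS side lay 8 genes that were apart and not called, with edgeR Benjamini-Hochberg adjusted p of 0.0555 to 0.119. Raly, an RNA-binding protein, was at 1.95, 0 and 0 CPM in PL 1, 2 and 3, against 33.5, 28.1 and 46.0 CPM in GS 1, 2 and 3. Camk2a, a calcium-dependent kinase of synapses, was at 10.5, 4.15 and 5.96 CPM in PL 1, 2 and 3, against 49.4, 163 and 73.9 CPM in GS 1, 2 and 3. Slitrk2, a synaptic adhesion protein, was at 88.7, 63.6 and 44.1 CPM in PL 1, 2 and 3, against 206, 219 and 278 CPM in GS 1, 2 and 3. These 3 differ in kind: Slitrk2 was detected well in every library, and Raly was at 0 in the libraries with few detected genes. Thbs2, an extracellular thrombospondin, and Rpa2, a subunit of the DNA-binding replication protein A, had no PL read, and Pofut2, Fam105a and Zfp503 had at most 1.62 CPM in any PL library.

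The listed motor neuron genes Chat, Slc5a7, Isl2, Mnx1 and Prph were read in all 6 libraries, at unlike levels. Mnx1 was low, at 9.10, 7.99 and 7.28 CPM in PL 1, 2 and 3, against 5.85, 35.1 and 6.37 CPM in GS 1, 2 and 3. Isl2 was uneven, at 9.21, 318 and 39.3 CPM in PL 1, 2 and 3, against 7.89, 24.0 and 61.7 CPM in GS 1, 2 and 3. Chat, which makes acetylcholine, was at 241, 478 and 495 CPM in PL 1, 2 and 3, against 135, 156 and 156 CPM in GS 1, 2 and 3. The pools did not overlap, and the gene was not called (log2 fold change 1.44 ± 0.42, SE; edgeR Benjamini-Hochberg adjusted p = 0.188). Prph, a neuronal intermediate filament, was at 793 CPM or more in every PL library and 587 CPM or more in every GS library. Esrrg, known to be high in gamma motor neurons, was at 452, 662 and 308 CPM in PL 1, 2 and 3, against 364, 553 and 591 CPM in GS 1, 2 and 3. Rbfox3 (NeuN), known to be high in alpha motor neurons, was at 182, 654 and 361 CPM in PL 1, 2 and 3, against 195, 315 and 176 CPM in GS 1, 2 and 3. For both genes the pools overlapped. Of 15 markers of alpha, gamma and fast or slow motor neurons none was called, and the median log2 fold change was -0.09. Among them 2 were apart, with PL below, where the share over all tested genes was 9.25%. Spp1, osteopontin, a marker of alpha motor neurons and 1 of these 2, was at 13.4, 7.03 and 14.3 CPM in PL 1, 2 and 3, against 30.3, 76.1 and 72.0 CPM in GS 1, 2 and 3 (edgeR Benjamini-Hochberg adjusted p = 0.340).

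Retinoic acid is made by motor neurons of the limb columns and acts through nuclear receptors. Aldh1a2, the enzyme that makes it there, was at 545, 906 and 786 CPM in PL 1, 2 and 3, against 226, 177 and 474 CPM in GS 1, 2 and 3 (edgeR Benjamini-Hochberg adjusted p = 0.196). Of 6 tested retinoid receptor genes, Rara, Rarb, Rxrb and Rxrg were apart the other way, with at most 4.87 CPM in any PL library. Rxra and Rarg overlapped between the pools, with Rxra at 49.0, 15.7 and 14.8 CPM in PL 1, 2 and 3, against 25.9, 79.2 and 36.9 CPM in GS 1, 2 and 3. Rara was at 2.71, 0.319 and 0 CPM in PL 1, 2 and 3, against 9.94, 60.4 and 16.3 CPM in GS 1, 2 and 3. Rarb and Rxrg had no PL read, and their GS libraries reached at most 5.85 CPM. None of the 13 tested retinoid genes was called, 4 were apart with PL below where 9.25% of all tested genes were (3 with library totals as the only scaling), and their median log2 fold change was -1.26. The Hox list, whose genes assign motor neurons to levels and pools, had 29 tested members, none of them called. Of these, 2 were apart with PL below, where 9.25% of all tested genes were. The median log2 fold change of the list was -0.94. Without PL 2 and PL 3 these medians were -1.61 for the retinoid genes and -0.79 for the Hox genes. Hoxb6, 1 of these 2, was at 0.542, 0 and 0 CPM in PL 1, 2 and 3, against 3.8, 30.0 and 7.35 CPM in GS 1, 2 and 3. Hoxc10, a gene of the lumbar cord, overlapped, with 193, 331 and 110 CPM in PL 1, 2 and 3, against 106, 283 and 464 CPM in GS 1, 2 and 3. Among 7 Hox cofactors none was called. Meis2 was at 101, 236 and 35.7 CPM in PL 1, 2 and 3, against 41.2, 11.2 and 24.5 CPM in GS 1, 2 and 3, an overlap of PL 3 with GS 1 alone (edgeR Benjamini-Hochberg adjusted p = 0.177).

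Kcnh7 was the 1 call in the 4 lists of ion channels and transmitter receptors. Of 40 tested glutamate, GABA and glycine receptors none was called, and 3 were apart with PL above and 1 with PL below, against 3.86% and 9.25% of all tested genes. Gabrg1, a GABA receptor subunit, was at 306, 308 and 151 CPM in PL 1, 2 and 3, against 23.8, 1.19 and 13.9 CPM in GS 1, 2 and 3. It missed the threshold (log2 fold change 4.29 ± 0.86, SE; edgeR Benjamini-Hochberg adjusted p = 0.0585). Of 36 sodium, calcium and HCN channels none was called, 4 were apart with PL above and none with PL below, and with library totals as the only scaling 2 were above. The share of all tested genes apart with PL above was 3.86%. Cacna2d1, an auxiliary calcium channel subunit, was at 288, 115 and 319 CPM in PL 1, 2 and 3, against 60.7, 41.4 and 84.2 CPM in GS 1, 2 and 3 (edgeR Benjamini-Hochberg adjusted p = 0.0681). Of 8 nicotinic and muscarinic receptors none was called and 2 were apart, with PL below, where the share over all tested genes was 9.25%. Chrna3, a nicotinic subunit, was at 3.57, 0 and 0 CPM in PL 1, 2 and 3, against 21.6, 45.3 and 39.2 CPM in GS 1, 2 and 3 (edgeR Benjamini-Hochberg adjusted p = 0.177).

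Activity and injury genes were also examined, since the tracer was injected into muscle. Of 12 tested members none was called, 1 was apart with PL above and 2 with PL below. The 1 above was Sprr1a, a gene that nerve injury induces, with 16.2, 65.5 and 63.3 CPM in PL 1, 2 and 3, against 1.32, 0 and 10.3 CPM in GS 1, 2 and 3 (edgeR Benjamini-Hochberg adjusted p = 0.255). Egr1, an immediate early gene, was at 7.04, 3.19 and 9.05 CPM in PL 1, 2 and 3, against 23.2, 59.4 and 21.2 CPM in GS 1, 2 and 3 (edgeR Benjamini-Hochberg adjusted p = 0.252). Of 66 tested cytosolic ribosomal protein genes and of 75 tested oxidative phosphorylation genes none was called. Of the ribosomal protein genes 7 were apart with PL below and 1 with PL above, and the 7 became 3 with RLE scaling and 15 with library totals. Of the oxidative phosphorylation genes 12 were apart with PL below and 2 with PL above. Over all tested genes 9.25% were apart below and 3.86% above.

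Markers of other cells varied between the PL libraries, and none was called. The summed level of 15 oligodendrocyte markers, tested or not, was 369, 1717.5 and 555 CPM in PL 1, 2 and 3, against 473, 283 and 605 CPM in GS 1, 2 and 3. Within that sum Mobp, a myelin protein gene, was at 4.87, 424 and 56.5 CPM in PL 1, 2 and 3, against 9.65, 1.36 and 19.9 CPM in GS 1, 2 and 3. Mbp was also highest in PL 2, at 617 CPM. The listed markers did not all rise there: Mag had no read in PL 2, and Mog was at 2.24 CPM, from 7 reads. The 10 endothelial markers summed to 48.0, 684 and 29.6 CPM in PL 1, 2 and 3, against 25.0, 33.9 and 40.6 CPM in GS 1, 2 and 3, and Cdh5 made up 661.5 CPM of the PL 2 value, while Pecam1 and Cldn5 were at 0 there. PL 2 was thus the library with the most RNA of both lists, and it was also the highest PL library for Sst, Scg2, Plxna2, Sox6, Cnnm1, Kcnh7, Lxn and Lhx1. Without PL 2, Sst, Scg2, Plxna2, Sox6 and Lxn stayed called, and Cnnm1 and Kcnh7 did not. The part of these cells in the values of the genes named here, those that stayed called included, was not tested.

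The 12 astrocyte markers summed to 3086, 4330 and 3766 CPM in PL 1, 2 and 3, against 2779, 2440 and 3239 CPM in GS 1, 2 and 3. Slc1a2, a glutamate transporter of astrocytes, was apart with PL above, though not with library totals as the only scaling, at 1167, 1535 and 1918 CPM in PL 1, 2 and 3, against 973, 758 and 827 CPM in GS 1, 2 and 3 (edgeR Benjamini-Hochberg adjusted p = 0.201). Gfap, the filament protein of astrocytes, was at 31.2, 2.24 and 103 CPM in PL 1, 2 and 3, against 5.12, 1.02 and 0.816 CPM in GS 1, 2 and 3. The 12 microglia markers, tested or not, summed to 14.9, 54.6 and 211 CPM in PL 1, 2 and 3, against 42.1, 16.3 and 16.6 CPM in GS 1, 2 and 3. The listed marker Aif1 had no read in any of the 6 libraries. The 13 interneuron markers, tested or not, summed to 203, 311 and 376 CPM in PL 1, 2 and 3, against 203, 274 and 126 CPM in GS 1, 2 and 3. A different gene made up most of each PL sum: Slc17a6 at 167 CPM in PL 1, Slc6a5 at 248 CPM in PL 2 and Gad2 at 364 CPM in PL 3. The 7 fibroblast and meninges markers, tested or not, summed to 148, 47.9 and 70.4 CPM in PL 1, 2 and 3, against 111, 13.8 and 67.2 CPM in GS 1, 2 and 3. The part of these cells in the calls was not tested.

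The 9 libraries of the other pools offer a comparison that shares no library with this pair. TA and EDL lie on the front of the leg and are reached, like PL, through the common peroneal nerve, while most intrinsic muscles of the foot are reached through the tibial nerve, like GS. The mean of the TA and EDL coefficients was set against IF in the same fit, where 89 genes were called (0.621%), 40 higher in TA and EDL (0.279%) and 49 higher in IF (0.342%). Of the 17 genes called between PL and GS, 15 had the same direction there and 7 were also called in it: Alcam, Scg2, Plxna2, Sox6 and Nts higher in TA and EDL, and Isl1 and Pirt higher in IF. Lxn and Lifr were called in the opposite direction. The share of all tested genes with the same direction in both comparisons is not given here, so the 15 have no background beside them. By libraries, 8 of the 17 were apart the same way and 2 the opposite way, where over all genes 651 were apart with TA and EDL above (4.54%) and 820 with them below (5.72%). The 89 calls became 148 without PL 3, 58 without TA 2, 56 without EDL 1, 57 without EDL 3, 27 without IF 1 or IF 2 and 26 without IF 3.

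Alcam was at 682, 730 and 694 CPM in TA 1, 2 and 3 and 975, 621 and 398 CPM in EDL 1, 2 and 3, against 111, 152 and 143 CPM in IF 1, 2 and 3. The 6 libraries of TA and EDL lay apart from those of IF, and the log2 fold change was 2.34 ± 0.30 (SE; edgeR Benjamini-Hochberg adjusted p = 0.000524). Plxna2 was at 193, 218 and 230 CPM in TA 1, 2 and 3 and 346, 364 and 355 CPM in EDL 1, 2 and 3, against 49.1, 41.4 and 38.5 CPM in IF 1, 2 and 3. Its log2 fold change was 2.68 ± 0.41 (SE; edgeR Benjamini-Hochberg adjusted p = 0.00257). The values of IF and GS were thus in 1 low range and those of PL above those of TA and EDL for this gene.

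Sox6 had a log2 fold change of 4.0 ± 0.57 for TA and EDL over IF (SE; edgeR Benjamini-Hochberg adjusted p = 0.00127), close to that of PL over GS. Scg2 had one of 2.19 ± 0.34 (SE; edgeR Benjamini-Hochberg adjusted p = 0.00285), which missed the threshold without IF 1 (edgeR Benjamini-Hochberg adjusted p = 0.0514). Nts split the front muscles: it was at 23.1, 30.2 and 45.2 CPM in TA 1, 2 and 3 and 599, 486 and 458 CPM in EDL 1, 2 and 3, against 2.24, 5.12 and 4.48 CPM in IF 1, 2 and 3. TA overlapped GS, and EDL lay above PL. Of the 7 genes called in both comparisons, all but Scg2 kept the call of TA and EDL against IF without each single library.

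Isl1 had no read in TA 1, 2 and 3 and was at 0, 0.566 and 0 CPM in EDL 1, 2 and 3, against 76.1, 115 and 100 CPM in IF 1, 2 and 3. The 9 libraries of PL, TA and EDL thus held Isl1 at or near 0, and the 6 libraries of GS and IF held it at 51.4 CPM or more. Ncam2 was at 996, 660 and 777 CPM in TA 1, 2 and 3 and 254, 222 and 195 CPM in EDL 1, 2 and 3, against 183, 193 and 202 CPM in IF 1, 2 and 3. EDL overlapped IF, and the gene was not called there (log2 fold change 1.15 ± 0.26, SE; edgeR Benjamini-Hochberg adjusted p = 0.0528).

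**Figure D3:**
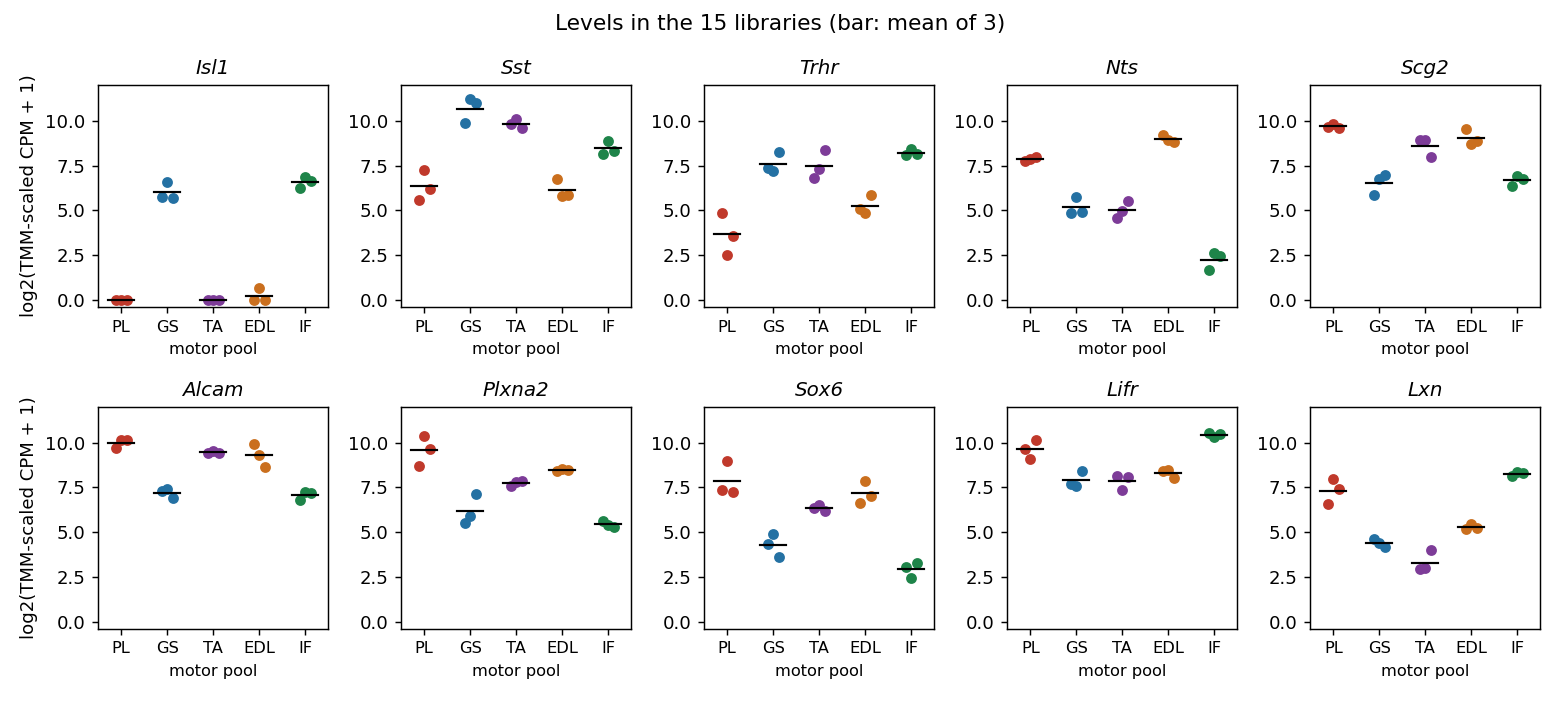
Levels of 10 of the called genes in the 15 libraries as log2(TMM-scaled CPM + 1), with the mean of each pool as a bar. Isl1 is at or near 0 in PL, TA and EDL, Alcam, Plxna2 and Scg2 are low in GS and IF, Sst is low in PL and EDL, and Lifr and Lxn are highest in IF.

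Whether the PL and GS change differed from that of the other pools was tested directly, as the difference of the log2 fold changes. Over all genes 27 differed (0.188%), and 3 of the 17 called genes were among them: Sst, Lifr and Lxn. The 27 became 802 without PL 1, 54 without PL 2, 43 without PL 3, 8 without GS 1, 14 without GS 2 or IF 2, 15 without GS 3, 16 without EDL 2, 12 without IF 1 and 11 without IF 3. Sst was at 897, 1089 and 779 CPM in TA 1, 2 and 3 and 108, 55.3 and 58.0 CPM in EDL 1, 2 and 3, against 287, 467 and 322 CPM in IF 1, 2 and 3. TA was thus above IF and EDL below it, and the difference of the changes was -3.82 ± 0.59 (SE; edgeR Benjamini-Hochberg adjusted p = 0.00717).

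Lifr was at 274, 160 and 265 CPM in TA 1, 2 and 3 and 343, 348 and 263 CPM in EDL 1, 2 and 3, against 1471, 1268 and 1438 CPM in IF 1, 2 and 3. PL thus lay with IF above the range of the other pools, and the difference was 4.13 ± 0.43 (SE; edgeR Benjamini-Hochberg adjusted p = 7.52e-05). Lxn was at 6.61, 6.86 and 14.8 CPM in TA 1, 2 and 3 and 35.3, 42.5 and 35.9 CPM in EDL 1, 2 and 3, against 284, 329 and 311 CPM in IF 1, 2 and 3. Its difference was 7.10 ± 0.64 (SE; edgeR Benjamini-Hochberg adjusted p = 1.83e-05). The differences of Sst, Lifr and Lxn passed the threshold without each single library and without PL 2 and PL 3. For the other 14 called genes the difference missed the threshold, which does not show that the changes were alike: for Nts it was -2.37 ± 0.55 (SE; edgeR Benjamini-Hochberg adjusted p = 0.105), and for Trhr -2.01 ± 0.75 (SE; edgeR Benjamini-Hochberg adjusted p = 0.332).

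**Figure D4:**
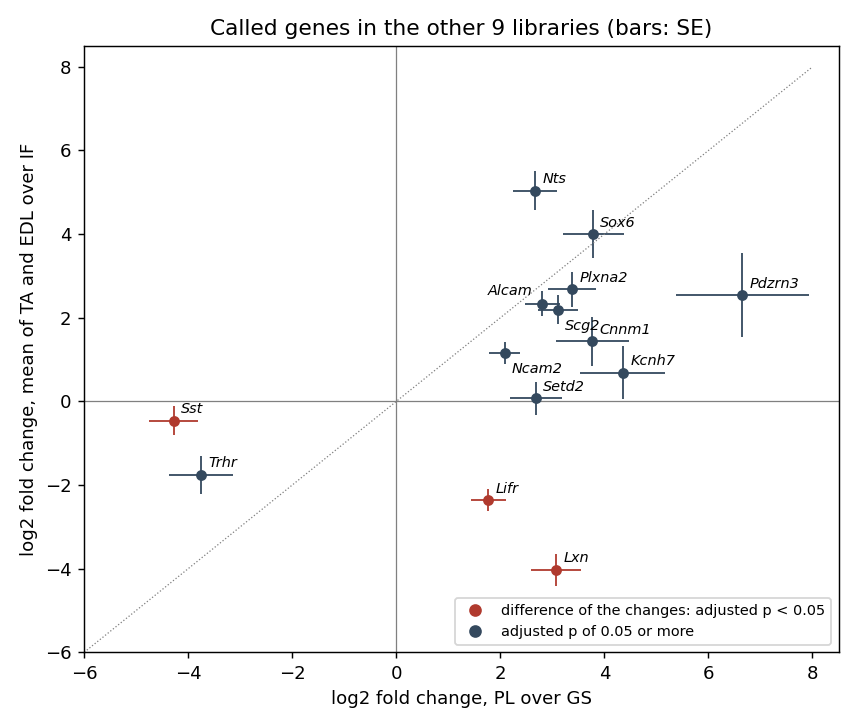
Log2 fold change of PL over GS (horizontal) and of the mean of TA and EDL over IF (vertical) for the 14 called genes with reads in every pool of the pair, with standard errors as bars and equality as the dotted line. Sst, Lifr and Lxn (red) are the genes whose changes differed with adjusted p under 0.05, and Isl1 and Pirt, without PL reads, are not drawn.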

How the data were processed

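For each of 15 mouse libraries the authors deposited a raw count of reads for every gene. Per the labels' protocols, cDNA was made with an Ovation RNA-Seq kit and tagged with Nextera, which does not mark strand. Per the submitters' processing notes, reads were aligned with Bowtie 0.12.9 to mm9. The gene counter is not given in the sources used here. In 9 of the deposited count columns a few values were below 0, so these columns were recorded as a score. The 16 such values lay in 4 genes, which were left out of a table of 36814 genes. Another 16357 genes had no read in any library. The authors' RPKM columns and deposited gene lists were not used here.

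The filterByExpr rule of edgeR kept 14340 genes. All 15 libraries entered 1 fit with a coefficient for each of 5 pools, by edgeR's quasi-likelihood test with TMM scaling (edgeR 4.0.16, R 4.3.3), and p-values were Benjamini-Hochberg adjusted over all 14340 genes with a threshold of 0.05. The common dispersion was 0.789. The SE of a log2 fold change is its size divided by the root of its F statistic. A pool with no read was set to 3 counts over the pool for a lower bound of the fold. The script was tested on simulated counts. No pair of PL or GS libraries agreed within counting noise (chi-square per degree of freedom of at least 149 in PL and 47.7 in GS).

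The members and lists were chosen with earlier results of these data known. Genes were named if they were among the 12 called with the largest change per direction, filled by smallest p among genes apart, or the 8 called with the highest level, or called members of a list or else its 2 smallest p, or in a set of identity genes. Not every gene of that rule is printed, and others are marked as chosen after their values were seen. Clone and model names were counted and not named, and 1 of the 5 genes called higher in GS has such a name. Of the oligodendrocyte markers, 1 is not reported here. Promoters were matched by symbol.

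Alternatives were RLE scaling, library totals, other filters, DESeq2 1.42.0, limma voom (limma 3.58.1), the 6 libraries alone, a replicate block, and leaving out libraries. DESeq2 and limma voom on the 6 libraries alone were added after the data were seen.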

Additional observations from a re-analysis of the deposited data

Results flagged for a closer look

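Each gene here had a change of PL over GS that differed from its change of TA and EDL over IF, by the test of that difference in edgeR with Benjamini-Hochberg adjustment. The difference of the log2 fold changes, PL over GS minus TA and EDL over IF, was -3.82 for Sst (adjusted p = 0.00717), 7.10 for Lxn (adjusted p = 1.83e-05) and 4.13 for Lifr (adjusted p = 7.52e-05), all 3 called between PL and GS.

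Of genes not called between PL and GS, the difference was -5.68 for Aldh1a2 (adjusted p = 7.52e-05), which was at 544.8 CPM or more in PL and 1.45 to 4.37 CPM in IF. It was -4.89 for Hoxc10 (adjusted p = 0.00419), at 8.86, 15.2 and 11.7 CPM in IF 1, 2 and 3 and above 100 CPM in every library of the other pools. It was 8.05 for Fign (adjusted p = 0.0127), at 393, 357 and 351 CPM in IF 1, 2 and 3, and 5.02 for Unc5d (adjusted p = 0.0130), at 0.848, 13.0 and 5.98 CPM in TA 1, 2 and 3.

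The difference was 5.43 for Gabrg1 (adjusted p = 0.0361) and -6.70 for Raly (adjusted p = 0.0447), where PL 2 and PL 3 were at 0. The differences of Sst, Lxn, Lifr, Aldh1a2 and Hoxc10 passed without each single library. By limma voom that of Hoxc10 missed the threshold (adjusted p = 0.0512), and with library totals as the only scaling those of Gabrg1 (adjusted p = 0.0516) and Raly (adjusted p = 0.0692) did. That of Fign was lost without GS 1, GS 2 or GS 3 (adjusted p up to 0.0920), that of Unc5d without GS 1, GS 2, GS 3, IF 1 or IF 3 (up to 0.0745), that of Gabrg1 without 10 of the libraries (up to 0.133) and that of Raly without 11 (up to 0.208).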

How the results depend on the processing

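The 17 calls between PL and GS were 17 with RLE scaling, 12 with library totals, 24 with a mean of at least 10 CPM, 20 by limma voom and 13 without PL 2 and PL 3. They became 340 with no filter, 608 by DESeq2 and 11 with a replicate block, and on the 6 libraries alone 0 by edgeR, 78 by DESeq2 and 4 by limma voom. Of the 17 genes, 17 stayed called with RLE, no filter, 10 CPM and DESeq2, 12 with library totals, 11 with the block and 10 by limma voom. With no filter, 271 calls were higher in PL and 69 in GS, and by limma voom 9 and 11, against 12 and 5. Leaving out each library gave 6 to 1646 calls. Genes apart with PL above were 553, and 296 with library totals, 4108 without PL 2 and PL 3, and 532 to 1406 without a single library. Those with PL below were 1327, and 753 at 10 CPM, 3396 without PL 2 and PL 3, and 1353 to 3943 without a single library. For TA and EDL against IF, 89 calls became 198 with no filter, 248 by DESeq2, 255 by limma voom, 272 without PL 2 and PL 3 and 26 to 148 without a single library. The 27 differences became 262, 344, 44, 43 and 8 to 802 under these settings. The cause of these shifts was not tested.

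Library totals moved the median log2 fold change of all genes to -0.38. No called gene reversed under any setting. Among genes not called, the sign turned for Rbfox3 (-0.34), Mobp (-1.09) and Rxra (0.046) without PL 2 and PL 3, for Esrrg without PL 3 and without GS 3 (range -0.41 to 0.14 over the libraries left out), and for Hoxc10 without GS 3 (range -0.91 to 0.088). Whether the replicate numbers pair PL with GS was not settled by the check made. Deviations of same-numbered libraries correlated at 0.111, 0.037 and 0.018, against -0.063 to 0.013 for PL and GS libraries of unlike number. Why 6 of the 17 calls were lost with the block was not tested. By the deviations each PL library correlated best with the GS library of its own number, a hint from the data and not from the design. For PL 3 it was 0.018 with GS 3 against 0.013 with GS 2. By rank correlation of levels, PL 2 and PL 3 were both closest to GS 1, at 0.752 and 0.742. Deviations of same-numbered libraries in other pairs of pools went both ways, such as -0.059 for GS 1 and TA 1 and 0.033 for GS 3 and TA 3. Summed over each pool, 3 reads stood at 0.178 CPM in PL and 0.159 CPM in GS. By library, 3 reads stood at 0.325, 0.958 and 0.662 CPM in PL 1, 2 and 3, against 0.439, 0.511 and 0.490 CPM in GS 1, 2 and 3. The limit for low genes was thus higher in PL 2 and PL 3 than in any GS library. PL 3 detected few genes at a total count above that of every GS library.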
